A study of Sus scrofa with 599 samples.

Results

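The genes examined here are 10 proliferation genes chosen by symbol: *MKI67*, *TOP2A*, *CDK1*, *CCNB1*, *CCNB2*, *BUB1*, *AURKB*, *KIF11*, *PCNA* and *MCM2*. They belong to a table of 21280 protein-coding genes (PCGs) measured by RNA-seq in porcine adipose tissues (ATs). For 8 of the 10 the symbol could be paired with an Ensembl gene ID and its expression row. *MKI67* and *PCNA* could not be paired with a row from the gene names used here, so their expression was not analysed here and only their promoters, compartments and nearby enhancers are described.

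In Sscrofa11.1 the 8 genes are *TOP2A* (ENSSSCG00000017473, chr12:22001300-22028452), *CDK1* (ENSSSCG00000010214, chr14:64233945-64255290), *CCNB1* (ENSSSCG00000029326, chr16:47338239-47348385), *CCNB2* (ENSSSCG00000004588, chr1:112907047-112942218), *BUB1* (ENSSSCG00000030469, chr3:45585188-45623240), *AURKB* (ENSSSCG00000028924, chr12:53410833-53426165), *KIF11* (ENSSSCG00000010471, chr14:104125839-104177381) and *MCM2* (ENSSSCG00000011624, chr13:72630378-72651270). *CCNB2*, *AURKB* and *MCM2* lie on the minus strand and the others on the plus strand. *MKI67* lies at chr14:137266622-137296312 and *PCNA* at chr17:14137746-14142584, both on the minus strand.

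The samples came from female Bama pigs, a Chinese miniature breed, that were adults of 2 years when the study began. The normal condition (NC) group ate a normal diet, the weight-gain (WG) group ate a high-fat diet for 22 weeks, and the weight-loss (WL) group was restricted, after the same high-fat feeding, to 10% of the normal caloric intake for 12 weeks. The WL pigs were thus 12 weeks older than the WG pigs at sampling, and age and weight loss cannot be told apart here. Upper layer of backfat (ULB) is subcutaneous, whereas the 3 visceral ATs are the mesenteric (MAD) and retroperitoneal (RAD) fat and that of the greater omentum (GOM). RNA-seq covered 9 GOM, 12 MAD, 12 RAD and 5 ULB samples of NC, 45, 36, 39 and 38 of WG, and 10 of each AT of WL, or 236 samples in 12 groups of diet and AT. The labels number the samples of a group without saying that each number is a separate pig, so that p-values measure the spread between these samples.

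The libraries held from 3337098 to 22939420 estimated counts on PCGs (median 16791659). Adipocyte genes such as *ADIPOQ* and *PLIN1* were abundant in all 12 groups, with group medians of 1810 to 4983 TPM, a level scaled for gene length and library size, for *ADIPOQ*. In 40 libraries PCGs made up less than 88% of the summed TPM, and these were unevenly spread, with 7 of 9 in NC GOM, 6 of 12 in NC RAD, 6 of 10 in WL GOM, 6 of 10 in WL MAD and 0 of 39 in WG RAD. Separately, 4 libraries, all of MAD, stood apart by the B cell gene *MS4A1*: 61.9, 236 and 117.3 TPM in WL MAD replicates 1, 6 and 7 and 136.4 TPM in WG MAD replicate 31, against under 20 TPM in any other library. WG GOM replicate 35, the library with the fewest counts, is listed at 0 for 5 of the 8 genes.

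Cells that divide copy their DNA in S phase and share it out in mitosis, and the genes for that machinery are switched on in sequence. *MCM2* encodes a subunit of the helicase that opens DNA at replication origins, and *PCNA* the clamp that holds DNA polymerases. *TOP2A* untangles DNA before chromosomes separate, *CDK1* is the kinase that drives entry into mitosis, and *CCNB1* and *CCNB2* are its cyclin partners. *KIF11* is the motor that pushes spindle poles apart, *BUB1* and *AURKB* are kinases that watch over the attachment of chromosomes to the spindle, and *MKI67* coats mitotic chromosomes and is the common histological mark of cycling cells. Mature adipocytes hardly divide, so in whole AT such transcripts are usually credited to progenitors, endothelium and leukocytes.

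Many G2/M genes carry CCAAT boxes just upstream of their start and the element TTTGAA of cell cycle-dependent promoters, and many S phase genes carry E2F sites. The promoters of *TOP2A*, *CDK1*, *CCNB1* and *BUB1* are shown as examples of genes that varied together from library to library. *KIF11* and *MCM2* varied with them but are not shown. *KIF11*, the gene most correlated with *TOP2A*, had no CCAAT box in the 300 bases read. Each run is the 300 bases before the outermost annotated start in the RefSeq annotation of Sscrofa11.1, written 5′ to 3′ on the strand of the gene, with capitals for CCAAT or its complement ATTGG, for TTTGAA or TTCAAA, and for TTTNNCGC or GCGNNAAA. They lie at chr12:22001000-22001299 (+) for *TOP2A*, chr14:64233645-64233944 (+) for *CDK1*, chr16:47337939-47338238 (+) for *CCNB1* and chr3:45584888-45585187 (+) for *BUB1*.
TOP2A: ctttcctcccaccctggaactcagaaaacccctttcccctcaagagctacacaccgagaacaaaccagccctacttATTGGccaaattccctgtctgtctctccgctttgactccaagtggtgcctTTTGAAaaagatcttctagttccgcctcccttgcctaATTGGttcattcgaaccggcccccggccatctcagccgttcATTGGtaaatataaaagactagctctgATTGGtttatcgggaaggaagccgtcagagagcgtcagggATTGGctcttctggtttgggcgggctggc
CDK1: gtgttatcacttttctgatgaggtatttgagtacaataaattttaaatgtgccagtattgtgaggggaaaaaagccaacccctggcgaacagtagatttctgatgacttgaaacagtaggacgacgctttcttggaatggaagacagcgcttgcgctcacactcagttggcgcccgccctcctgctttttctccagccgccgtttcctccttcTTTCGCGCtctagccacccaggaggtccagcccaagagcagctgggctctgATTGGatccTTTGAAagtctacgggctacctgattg
CCNB1: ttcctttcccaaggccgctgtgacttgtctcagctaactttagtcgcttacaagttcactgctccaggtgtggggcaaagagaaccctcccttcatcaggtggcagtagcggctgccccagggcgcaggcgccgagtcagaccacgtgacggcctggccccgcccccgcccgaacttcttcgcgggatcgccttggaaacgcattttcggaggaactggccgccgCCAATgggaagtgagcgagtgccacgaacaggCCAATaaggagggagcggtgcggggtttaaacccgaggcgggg
BUB1: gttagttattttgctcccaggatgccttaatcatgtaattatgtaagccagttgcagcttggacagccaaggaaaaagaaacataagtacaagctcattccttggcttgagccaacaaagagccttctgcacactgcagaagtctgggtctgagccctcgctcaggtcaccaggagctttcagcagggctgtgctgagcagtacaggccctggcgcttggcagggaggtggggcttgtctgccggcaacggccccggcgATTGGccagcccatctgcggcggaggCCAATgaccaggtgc

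*TOP2A* had 5 CCAAT boxes in its window, all as ATTGG, with the nearest 29 bases before the start. *CCNB1* and *BUB1* had 2 each and *CDK1* had 1. Among the promoters not shown, *MKI67* and *PCNA* had 2 and *MCM2* had 1, so 7 of the 9 genes whose windows were read had a CCAAT box, against 35.8% of 19556 PCG promoters of the same length. TTTGAA was found in 4 of the 9 (*MKI67*, *TOP2A*, *CDK1* and *AURKB*), against 15.6% of all. TTTNNCGC was found in 3 of the 9 (*MKI67*, *CDK1* and *KIF11*), against 7.10% of all. The letters were searched on both strands with overlaps allowed, and they describe these windows only.

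All 8 genes were transcribed at low levels in AT. Over the 236 libraries the median was 4.93 TPM for *TOP2A*, 6.27 TPM for *CCNB2* and 4.36 TPM for *AURKB*, and those of *CDK1*, *KIF11*, *MCM2* and *CCNB1* lay between 2.11 and 2.97 TPM. *BUB1* was lowest at 0.782 TPM and passed the minimum of 0.5 TPM in 80% of the samples of a group in only 13 of the 30 comparisons made. Group medians were highest in WG GOM for *TOP2A*, *CDK1*, *KIF11* and *BUB1*, in WL GOM for *MCM2*, in WL MAD for *AURKB*, in NC ULB for *CCNB1* and in NC RAD for *CCNB2*. The lowest median was in NC MAD or NC RAD for 6 of the 8 genes, in NC ULB for *AURKB* and in WL GOM for *CCNB2*. When the 12 groups were ordered by median, the ranges of all 11 neighbouring pairs overlapped for every gene, and the highest and lowest groups were apart in range only for *AURKB*.

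**Figure D1:**
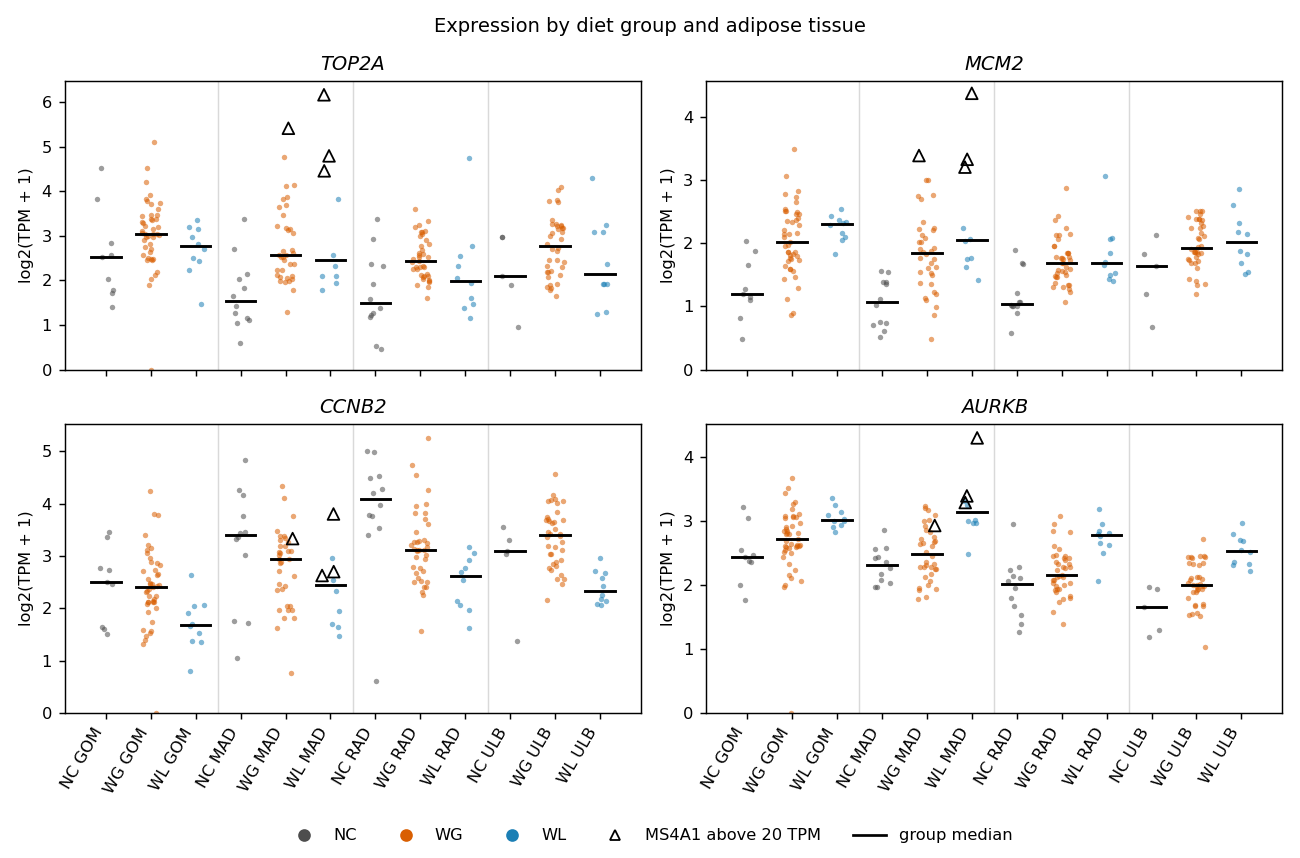
Expression of *TOP2A*, *MCM2*, *CCNB2* and *AURKB* in the 236 libraries, as log2(TPM + 1) on the vertical axis, by diet group and AT on the horizontal axis. Points are libraries, bars are group medians and open triangles are the 4 MAD libraries with *MS4A1* above 20 TPM, which reach 70.5 TPM for *TOP2A*, whereas the WG medians of *MCM2* (2.23 to 3.04 TPM) lie above those of NC (1.06 to 2.10 TPM).

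The first question was what the high-fat diet did to these genes. *MCM2* rose in all 3 visceral ATs, *TOP2A*, *CCNB1* and *KIF11* rose in MAD, and *CCNB2* fell in RAD. A gene is called changed where edgeR's quasi-likelihood test gave a Benjamini-Hochberg adjusted p below 0.05 over all PCGs tested and the fold change was above 1.5. Of 30 tests of these genes between NC and WG over the 4 ATs, 6 were called higher and 1 lower, where 14.3% of all tests were called. In GOM 1 of 8 genes was called, in MAD 4 of 7, in RAD 2 of 7 and in ULB 0 of 8, while of all PCGs 26.7%, 10.7%, 16.7% and 2.38% were. In the direction of the genes called, 12.2% of PCGs rose in GOM, 5.38% in MAD and 7.10% in RAD, and 9.60% fell in RAD.

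In GOM *MCM2* had 0.40 to 3.11 TPM in NC (median 1.29, n = 9) and 0.82 to 10.19 TPM in WG (median 3.04, n = 45). In MAD it had 0.43 to 1.94 TPM in NC (median 1.11, n = 12) and 0.40 to 9.45 TPM in WG (median 2.58, n = 36). In RAD it had 0.49 to 2.72 TPM in NC (median 1.06, n = 12) and 1.10 to 6.34 TPM in WG (median 2.23, n = 39). The groups overlapped in each AT, yet most WG libraries were above most NC libraries, as 84.2%, 85.9% and 85.5% of the pairs of a WG and an NC library had the higher value in WG. The log2 fold change of *MCM2* was 0.83 ± 0.29 (SE) in GOM (adjusted p = 0.02), 1.23 ± 0.30 in MAD (adjusted p = 0.00323) and 0.65 ± 0.18 in RAD (adjusted p = 0.00455). In ULB it was 0.49 ± 0.28 (adjusted p = 0.407), with NC values of 1.3, 0.59, 3.36, 2.57 and 2.10 TPM in replicates 2, 5, 7, 9 and 12. Those 5 values spanned most of the range of the 38 WG samples, 1.3 to 4.72 TPM. The RAD call of *MCM2* was lost when the PCG share was added to the fit (0.40, adjusted p = 0.296), while the GOM and MAD calls were kept.

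In MAD *TOP2A* had 0.53 to 9.32 TPM in NC (median 1.91, n = 12) and 1.45 to 41.5 TPM in WG (median 4.94, n = 36), a log2 fold change of 1.36 ± 0.40 (SE, adjusted p = 0.0143). *KIF11* had 0.43 to 4.41 TPM in NC (median 1.38) and 0.77 to 18.6 TPM in WG (median 3.38), a log2 fold change of 1.11 ± 0.34 (adjusted p = 0.018). *CCNB1* had 0.23 to 3.80 TPM in NC (median 0.867) and 0.74 to 19 TPM in WG (median 2.20), a log2 fold change of 1.27 ± 0.42 (adjusted p = 0.0272). For each of the 3 the NC and WG ranges overlapped and the highest library was WG MAD replicate 31, one of the *MS4A1*-rich libraries. Without it the same 4 genes of MAD were called, at 1.15 ± 0.35 for *TOP2A*, 0.94 ± 0.30 for *KIF11*, 1.02 ± 0.36 for *CCNB1* and 1.12 ± 0.27 for *MCM2*. With the PCG share in the fit the call of *CCNB1* was lost (1.14, adjusted p = 0.0581). *CDK1* had medians of 1.64 and 2.82 TPM and did not pass (0.87 ± 0.37, adjusted p = 0.0915). In MAD the median of the 7 genes tested was 1.11, against −0.01 over all 13845 PCGs tested. Genes of other cell types also had higher medians in WG MAD. The 12 macrophage genes summed to 486.7 to 1197.5 TPM in NC MAD (median 866.6) and 724.9 to 3629.9 TPM in WG MAD (median 1864.8). The 6 progenitor genes, of which *DLK1* had a median of 0 in both groups, summed to 152.2 to 497.5 TPM (median 311.2) and 225.6 to 1082.1 TPM (median 605.1), and the 7 endothelial genes to 396.5 to 888.7 TPM (median 651.6) and 399.2 to 1077.1 TPM (median 787.8). In GOM the macrophage medians were 1685.4 and 2343.0 TPM and the progenitor medians 204.9 and 365.2 TPM. In RAD they were 1079.8 and 1846.2 TPM, and 199.7 and 250.2 TPM. Endothelial medians were 545.6 and 780.7 TPM in GOM and 632.6 and 889.1 TPM in RAD. T cell medians were 29.2 and 50.4 TPM in MAD, 69.6 and 69.5 TPM in GOM, and 26.96 and 38.13 TPM in RAD. Plasma cell medians were 142.4 and 252.4 TPM in MAD, 283.8 and 346.7 TPM in GOM, and 182.6 and 292.4 TPM in RAD. In GOM and RAD, where *TOP2A*, *KIF11* and *CCNB1* were not called, all but the T cell median in GOM were higher in WG. The part of these cells in the MAD rise was not tested.

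In GOM and RAD the same genes did not pass. *TOP2A* had a median of 4.78 TPM in NC GOM and 7.29 TPM in WG GOM, but NC GOM replicate 5 reached 21.9 TPM and the fitted log2 fold change was 0.06 ± 0.34 (adjusted p = 0.892). In RAD *TOP2A* had medians of 1.80 and 4.41 TPM and a log2 fold change of 0.57 ± 0.26 (adjusted p = 0.0772). In ULB none of the 8 genes was called by edgeR or by DESeq2, and none had an unadjusted p below 0.05. The largest differences there were 0.67 ± 0.43 for *BUB1* and 0.59 ± 0.40 for *TOP2A*, against 5 NC samples.

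*CCNB2* went the other way. In RAD it had 0.52 to 31.2 TPM in NC (median 16, n = 12) and 1.95 to 37.2 TPM in WG (median 7.71, n = 39), and fell by 1.03 ± 0.29 on the log2 scale (adjusted p = 0.00488). The lowest of the 12 NC samples was below every WG sample, while the other 11 were all above the WG median. In MAD the difference was −0.78 ± 0.32 (adjusted p = 0.0737), in GOM −0.25 ± 0.32 (adjusted p = 0.55) and in ULB 0.37 ± 0.34 (adjusted p = 0.68).

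**Figure D2:**
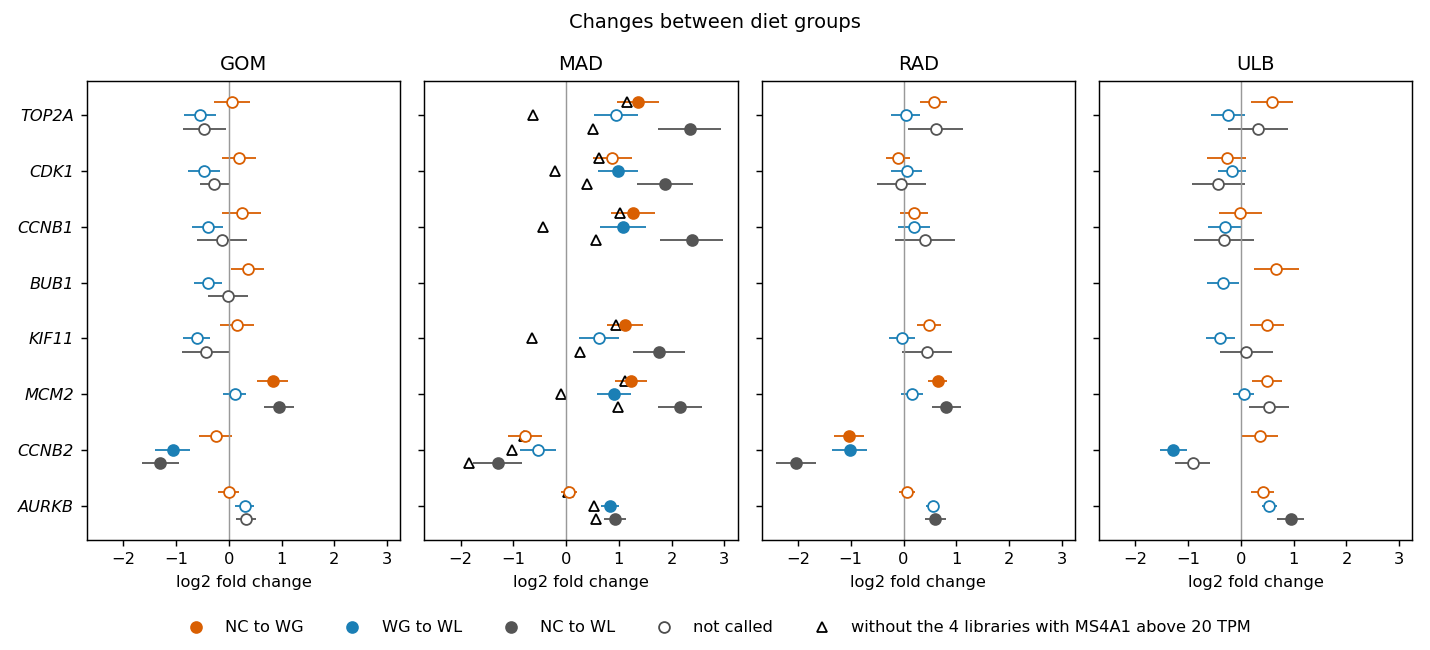
Log2 fold change (horizontal axis) of each gene between diet groups in the 4 ATs, with bars of 1 SE. Filled circles were called, open circles were not, and triangles show MAD without the 4 libraries with *MS4A1* above 20 TPM, where for example *CDK1* from WG to WL moves from 0.98 to −0.21. *BUB1* is shown where it passed the minimum level.

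The second question was what happened when the pigs lost weight. From WG to WL *CCNB2* fell in GOM, RAD and ULB, and *AURKB*, *CDK1*, *CCNB1* and *MCM2* were called higher in MAD. Of 30 tests 4 were called higher and 3 lower, where 9.32% of all tests were called. In GOM 1 of 8 genes was called, in MAD 4 of 7, in RAD 1 of 7 and in ULB 1 of 8, while of all PCGs 5.26%, 17.4%, 6.37% and 8.12% were. In the direction of the genes called, 2.71% of PCGs fell in GOM, 4.13% in RAD and 4.90% in ULB, and 8.26% rose in MAD. These comparisons use the same WG samples as those with NC, so the values of both are set side by side only.

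*CCNB2* in ULB had 3.48 to 22.5 TPM in WG (median 9.55, n = 38) and 3.15 to 6.76 TPM in WL (median 4.06, n = 10). All WL samples were below the WG median. The log2 fold change was −1.28 ± 0.25 (adjusted p = 2.49e-04). In RAD it had a median of 7.71 TPM in WG and 2.06 to 8.02 TPM in WL (median 5.16), and fell by 1.02 ± 0.33 (adjusted p = 0.033). In GOM it had 0 to 17.8 TPM in WG (median 4.32) and 0.75 to 5.22 TPM in WL (median 2.20), and fell by 1.06 ± 0.33 (adjusted p = 0.0327). The groups overlapped in both ATs, and both calls lay near the threshold. Leaving out WL GOM replicate 1, 3, 4, 6, 8, 9 or 10 lost the GOM call, with fold changes from −1.09 to −0.95 and adjusted p from 0.0513 to 0.0776, and so did the PCG share in the fit (−1.09, adjusted p = 0.128). Leaving out WL RAD replicate 1, 2, 3 or 7 lost the RAD call, with fold changes from −1.0 to −0.92 and adjusted p from 0.0595 to 0.0655. In MAD the difference was −0.54 ± 0.34 (adjusted p = 0.222), and −1.02 ± 0.40 (adjusted p = 0.0955) without the 4 *MS4A1*-rich libraries.

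The calls in MAD moved with those libraries. *CDK1* had 0.99 to 22.3 TPM in WG MAD (median 2.82, n = 36) and 1.49 to 26.3 TPM in WL MAD (median 3.36, n = 10), a log2 fold change of 0.98 ± 0.38 (adjusted p = 0.0421). *CCNB1* had medians of 2.20 TPM in both groups and a log2 fold change of 1.08 ± 0.43 (adjusted p = 0.0486), and *MCM2* had medians of 2.58 and 3.14 TPM and a log2 fold change of 0.91 ± 0.32 (adjusted p = 0.0278). WL MAD replicates 6, 7 and 1 held the 3 highest values of each of the 3 genes among the WL MAD samples: 26.3, 16.5 and 11.7 TPM for *CDK1* against 1.49 to 5.68 TPM in the other 7. Without the 4 libraries, a comparison chosen after seeing the data, the log2 fold change was −0.21 ± 0.33 for *CDK1*, −0.43 ± 0.40 for *CCNB1* and −0.10 ± 0.31 for *MCM2*, and no gene was called. Leaving out WL MAD replicate 6 alone gave 0.52, 0.36 and 0.43, and leaving out replicate 1 or 7 also lost all 3 calls, at 0.73 to 0.91 for *CDK1*, 0.93 to 1.01 for *CCNB1* and 0.80 to 0.82 for *MCM2*. With the PCG share in the fit the values were 0.38, 0.32 and 0.03, and without the filter on low levels the call of *CCNB1* was lost (1.10, adjusted p = 0.0562).

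WL MAD replicate 6 had the highest value of all 236 libraries for 7 of the 8 genes, the exception being *CCNB2*. Its 9 B cell genes summed to 701.1 TPM, and those of WL MAD replicates 7 and 1 to 397.9 and 259.7 TPM, against 42.3 to 71.2 TPM in the other 7 WL MAD samples. T cell genes summed to 1053.2, 978.7 and 476.3 TPM against 54.3 to 123.0 TPM, and plasma cell genes to 2975.6, 7696.8 and 2398.1 TPM against 356.6 to 596.8 TPM. The 6 germinal centre genes, of dividing B cells, summed to 203.9, 69.4 and 78.5 TPM against 26.4 to 40 TPM. Adipocyte genes were lower in the 3 libraries, at 3769.9, 4788.8 and 11894.3 TPM against 14711.3 to 18657.3 TPM. In WG MAD replicate 31 the B cell sum was 385.1 TPM against 26.1 to 116.7 TPM in the other 35, but its adipocyte sum of 15330.0 TPM was within their range. In bulk samples fewer cells of a type and less RNA per cell, or more of either, cannot be told apart, and the part of these cells in the MAD results was not tested.

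High levels were also found where *MS4A1* was low. *TOP2A* reached 33.4 TPM in WG GOM replicate 26, 26.1 TPM in WG MAD replicate 33 and 26 TPM in WL RAD replicate 6, with *MS4A1* at 0.371, 0.803 and 0.407 TPM. The other genes of the group followed it there, for example *CDK1* at 16.1, 15.4 and 14.1 TPM and *KIF11* at 17.3, 12.6 and 12.3 TPM. *CCNB2* was at 8.26, 6.65 and 8.02 TPM in these 3 libraries, which was within the range of the other WG GOM and WG MAD samples but the highest of the 10 WL RAD samples. *AURKB*, at 7.36, 3.75 and 5.92 TPM, was within the range of its group in each.

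**Figure D3:**
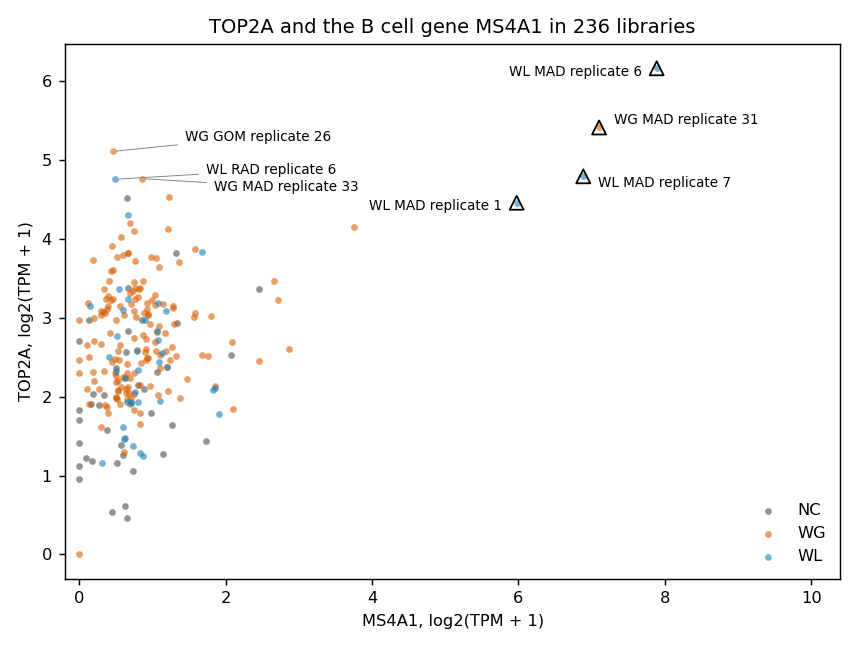
*TOP2A* (vertical axis) against the B cell gene *MS4A1* (horizontal axis), both as log2(TPM + 1), in the 236 libraries, coloured by diet group. The 4 MAD libraries with *MS4A1* of 61.9 to 236 TPM (triangles) have *TOP2A* of 20.9 to 70.5 TPM, and WG GOM replicate 26, WG MAD replicate 33 and WL RAD replicate 6 have *TOP2A* of 26 to 33.4 TPM with *MS4A1* below 1 TPM.

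In RAD 1 library, WL RAD replicate 6, moved the fitted values of *TOP2A*, *CDK1*, *CCNB1*, *KIF11* and *MCM2*, while *AURKB* was at 0.55 ± 0.13 with it and 0.53 ± 0.14 without it. *TOP2A* had 2.05 to 11.07 TPM in WG RAD (median 4.41, n = 39) and 1.23 to 26 TPM in WL RAD (median 2.99, n = 10), with a log2 fold change of 0.04 ± 0.28 (adjusted p = 0.937). In only 30.3% of the pairs of a WL and a WG library was the WL value the higher one. Given all 10 WL samples DESeq2, unlike edgeR, called *TOP2A* (−0.75 ± 0.21, adjusted p = 0.00538) and *CCNB1* (−0.69 ± 0.23, adjusted p = 0.0233) lower, and had *CDK1* at 0.05 ± 0.29 and *KIF11* at −0.04 ± 0.25. DESeq2 was run with its defaults, which replace single counts flagged as outliers in groups of this size. Whether counts of WL RAD replicate 6 were replaced was not recorded, so these calls may not rest on its values. Without WL RAD replicate 6, a comparison also chosen after seeing the data, *TOP2A* was called lower (−0.81 ± 0.23, adjusted p = 0.0143), as were *CDK1* (−0.74 ± 0.25), *CCNB1* (−0.73 ± 0.24) and *KIF11* (−0.65 ± 0.22), beside *CCNB2* (−1.13 ± 0.35). *MCM2* was not (−0.14 ± 0.19, adjusted p = 0.642). In ULB the library of that kind was WL ULB replicate 10, with 18.8 TPM of *TOP2A* against a median of 3.49 TPM. Without it *KIF11* was called lower (−0.81 ± 0.27, adjusted p = 0.0311) beside *CCNB2* (−1.42 ± 0.26), and *TOP2A* was at −0.76 ± 0.32 (adjusted p = 0.0977). In GOM the differences of *TOP2A*, *CDK1*, *CCNB1*, *BUB1* and *KIF11* from WG to WL were −0.61 to −0.39, none of them called (adjusted p from 0.116 to 0.446).

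*AURKB* had a higher median in WL than in WG in all 4 ATs. Its WG and WL medians were 5.60 and 7.10 TPM in GOM, 4.61 and 7.83 TPM in MAD, 3.45 and 5.87 TPM in RAD, and 2.99 and 4.79 TPM in ULB. In MAD it was called higher (0.83 ± 0.17, adjusted p = 1.84e-04), whereas without the 4 *MS4A1*-rich libraries it passed the p threshold but not the fold limit (0.53 ± 0.17, adjusted p = 0.0422), and with the PCG share in the fit its adjusted p was 0.0648. In RAD and ULB the adjusted p also passed but the fold was under 1.5, with log2 fold changes of 0.55 ± 0.13 (adjusted p = 0.0049) and 0.54 ± 0.14 (adjusted p = 0.0038). In GOM the difference was 0.30 ± 0.18 (adjusted p = 0.317).

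The third comparison set the weight-reduced pigs against those never given the high-fat diet. Of 29 tests 10 were called higher and 3 lower, where 27.8% of all tests were called. In GOM 2 of 8 genes were called, in MAD 7 of 7, in RAD 3 of 7 and in ULB 1 of 7, while of all PCGs 36.1%, 33.1%, 26.7% and 14.8% were. In GOM 15.4% of PCGs rose and 20.7% fell, in MAD 15.2% rose and 17.8% fell, in RAD 10.2% rose and 16.6% fell, and in ULB 5.39% rose. *MCM2* was higher in the 3 visceral ATs and *CCNB2* lower in them, and *AURKB* was higher in MAD, RAD and ULB.

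*AURKB* in ULB was the one case, of 240 pairs of gene and comparison, in which the ranges of both groups did not overlap. The share of all PCGs with ranges apart was not computed, so this is not shown to be particular to *AURKB*. The 5 NC ULB samples had 1.45, 2.92, 1.27, 2.16 and 2.82 TPM in replicates 2, 5, 7, 9 and 12, and the 10 WL ULB samples had 3.66 to 6.80 TPM (median 4.79). Every WL sample was therefore above every NC sample, and the log2 fold change was 0.94 ± 0.26 (adjusted p = 0.0171). In MAD *AURKB* had 2.90 to 6.27 TPM in NC and 4.59 to 18.7 TPM in WL (0.92 ± 0.21, adjusted p = 0.0012). In RAD it had 1.40 to 6.77 TPM in NC and 3.19 to 8.13 TPM in WL (0.60 ± 0.20, adjusted p = 0.0203), where DESeq2 (0.58) and the fit with the PCG share (0.57) gave a fold under 1.5. The MAD call was lost without the *MS4A1*-rich libraries (0.56 ± 0.17, adjusted p = 0.0172), where the fold was under 1.5.

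*CCNB2* in RAD showed the largest fall of the 8 genes in any comparison of diets. It had 0.52 to 31.2 TPM in NC (median 16) and 2.06 to 8.02 TPM in WL (median 5.16). The NC sample at 0.52 TPM was below every WL sample and the other 11 were above all of them, so the WL value was higher in 8.3% of the pairs of libraries. The log2 fold change was −2.04 ± 0.38 (adjusted p = 2.44e-04). It was −1.30 ± 0.35 in GOM (adjusted p = 0.00379), −1.30 ± 0.46 in MAD (adjusted p = 0.023) and −0.91 ± 0.33 in ULB (adjusted p = 0.0635; called by DESeq2, adjusted p = 0.0398), and −1.84 ± 0.51 in MAD without the *MS4A1*-rich libraries (adjusted p = 0.0108).

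*MCM2* rose by 0.95 ± 0.28 in GOM (adjusted p = 0.00681), from a median of 1.29 to 3.94 TPM, and by 0.81 ± 0.27 in RAD (adjusted p = 0.0186), from 1.06 to 2.21 TPM. In GOM the highest NC value was 3.11 TPM and the lowest WL value 2.57 TPM, and the WL library was the higher one in 97.8% of the pairs. In MAD the log2 fold change was 2.16 ± 0.41 (adjusted p = 3.07e-04), and 0.99 ± 0.27 (adjusted p = 0.00983) without the *MS4A1*-rich libraries. The other calls in MAD, *TOP2A* (2.34 ± 0.60), *CCNB1* (2.38 ± 0.60), *CDK1* (1.88 ± 0.53) and *KIF11* (1.76 ± 0.50), were lost without those libraries, at 0.51 ± 0.44, 0.57 ± 0.46, 0.40 ± 0.42 and 0.27 ± 0.36, and with the PCG share in the fit (adjusted p from 0.123 to 0.167).

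Whether a diet change differed between the ATs was tested in one fit of all 236 samples, in which samples of one pig count as independent. None of the 8 genes passed for NC to WG, where 8.80% of 15068 PCGs did, and none for WG to WL, where 6.41% did. At an unadjusted p below 0.05 there were 1 for NC to WG (*CCNB2*, adjusted p = 0.168) and 6 for WG to WL, led by *CDK1* (adjusted p = 0.115). Without the 4 *MS4A1*-rich libraries the same interaction test gave those 6 genes unadjusted p of 0.436 to 0.879. DESeq2 was not run for this test. With the replicate number within each diet group as a block, the F test called *TOP2A* for NC to WG (adjusted p = 0.0408). None of the 8 genes was called for WG to WL in that fit, and its share of all PCGs is not given here. Apart from that call, a gene called in one AT and not in another is not shown to differ between them.

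Between ATs of one diet group, *CCNB2* was lowest in GOM and *AURKB* lowest in ULB. In NC 1 of 42 tests was called higher and 3 lower, where 13% of all tests were called. In WG 2 of 47 were called higher and 7 lower, with 10.8% of all, and in WL 2 of 45 were called higher and 2 lower, with 10.1% of all. A log2 fold change is given here as the AT named second over the first.

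*CCNB2* was higher in RAD than in GOM in each diet group. In NC the medians were 4.67 TPM in GOM and 16 TPM in RAD (1.78 ± 0.42, adjusted p = 0.00303; 19.5% of PCGs called), in WG 4.32 and 7.71 TPM (1.02 ± 0.20, adjusted p = 1.76e-05; 11.2%) and in WL 2.20 and 5.16 TPM (1.04 ± 0.30, adjusted p = 0.0187; 12.2%). ULB also exceeded GOM in WG (1.10 ± 0.18, adjusted p = 1.79e-07; 17.9% of PCGs called) and in WL (0.84 ± 0.27, adjusted p = 0.0264; 16%). The ranges overlapped in all of these. Adipocyte genes were also higher in RAD than in GOM, with median sums of 7396.7, 13886.1 and 12861.4 TPM in NC, WG and WL GOM and of 17821.9, 20988.2 and 22172.3 TPM in RAD. In ULB their sums were 14926.8 TPM in WG, close to WG GOM, and 22416.7 TPM in WL, so they were higher in WL ULB, where *CCNB2* was lower than in WG ULB. Their part in the result was not tested.

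*AURKB* was lower in ULB than in GOM and in MAD. Against GOM the log2 fold change was −1.23 ± 0.35 in NC (adjusted p = 0.0144; 25.4% of PCGs called), −0.80 ± 0.11 in WG (adjusted p = 2.67e-09) and −0.61 ± 0.13 in WL (adjusted p = 8.71e-04), where the fold was under 1.5 with the PCG share in the fit (−0.55). In NC the numbers paired GOM with ULB, and with the replicate block over the 4 shared numbers the call was lost (−1.32 ± 0.53, adjusted p = 0.144). Against MAD it was −0.93 ± 0.26 in NC (adjusted p = 0.0321; 7.73%), −0.59 ± 0.10 in WG (adjusted p = 1.19e-06; 14.4%), just past the fold limit, and −0.91 ± 0.21 in WL (adjusted p = 0.00356; 14.4%). The WG call against MAD fell under the fold limit with DESeq2 or RLE factors, without the filter and among libraries of high PCG share (−0.58 to −0.57). The NC call against MAD was lost without the filter (−0.92, adjusted p = 0.0627) and without NC ULB replicate 2 (−0.83, adjusted p = 0.0906) or 7 (−0.78, adjusted p = 0.109). Without the *MS4A1*-rich libraries the values against MAD were −0.56 ± 0.10 in WG and −0.56 ± 0.15 in WL, under the fold limit, and *CCNB2* was then called higher in WG ULB than in WG MAD (0.61 ± 0.19, adjusted p = 0.00709).

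The other mitotic genes were lowest in RAD among the WG samples. From GOM to RAD *TOP2A* was at −0.68 ± 0.16 (adjusted p = 4.90e-04), *CDK1* at −0.60 ± 0.17 (adjusted p = 0.00399) and *CCNB1* at −0.63 ± 0.17 (adjusted p = 0.00159). From MAD to RAD, where 5.40% of PCGs were called, *TOP2A* was at −0.65 ± 0.20 (adjusted p = 0.0155) and *CCNB1* at −0.60 ± 0.21 (adjusted p = 0.0342). Both of the latter were lost without WG MAD replicate 31, at −0.45 ± 0.18 and −0.37 ± 0.18. With the replicate number as a block all 5 calls were lost. From GOM to RAD, over 39 shared numbers, *TOP2A* was then at −0.52 ± 0.16, *CDK1* at −0.42 ± 0.16 and *CCNB1* at −0.40 ± 0.15, which passed the p threshold (adjusted p = 0.0301 at most) but not the fold limit. From MAD to RAD, over 31, *TOP2A* was at −0.37 ± 0.16 (adjusted p = 0.0777) and *CCNB1* at −0.35 ± 0.17 (adjusted p = 0.105). In NC *TOP2A* was lower in MAD than in GOM (−1.33 ± 0.47, adjusted p = 0.0434; 17.7% of PCGs called), with medians of 1.91 and 4.78 TPM, and this was not called with the PCG share in the fit (−1.18, adjusted p = 0.285) or without the filter (−1.30, adjusted p = 0.0553).

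In WL none of the 7 genes tested was called by edgeR between MAD and RAD (7.31% of PCGs called), although 5 had an unadjusted p below 0.05, and DESeq2 called *AURKB*. The replicate numbers paired these samples, and with the replicate block 5 genes were called lower in RAD: *TOP2A* (−1.24 ± 0.28, adjusted p = 0.0128), *CDK1* (−1.31 ± 0.24, adjusted p = 0.00529), *CCNB1* (−1.31 ± 0.38, adjusted p = 0.0304), *KIF11* (−0.93 ± 0.27, adjusted p = 0.0307) and *MCM2* (−0.73 ± 0.22, adjusted p = 0.0355). Replicate 6 was the highest WL library of *TOP2A* in both ATs, at 70.5 TPM in MAD and 26 TPM in RAD. Without WL MAD replicates 1, 6 and 7 the unpaired differences were −0.29 to 0.54. No gene was called in the other 6 pairs of ATs by edgeR or DESeq2, where the shares of PCGs called were 2.41% (MAD to RAD) and 4.32% (RAD to ULB) in NC, 6.27% (GOM to MAD) and 9.27% (RAD to ULB) in WG, and 5.97% (GOM to MAD) and 4.34% (RAD to ULB) in WL. At an unadjusted p below 0.05 there were 0, 1, 1, 6, 6 and 0 genes in these. In WL DESeq2 also called *TOP2A* (−0.89) and *BUB1* (−0.94) lower in RAD than in GOM, where edgeR gave −0.12 and −0.11, and *CDK1* (−1.35) and *CCNB1* (−1.54) lower in ULB than in MAD. Here too its defaults could replace counts flagged as outliers, and whether they did was not recorded.

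The neighbours of these genes in the cell cycle were read from lists, with the 8 genes left out. These were S phase genes (34 at most tested), G2/M genes (39 at most) and replication fork partners (17 at most). *MCM4*, *MCM5*, *MCM6*, *RFC2* and *CDC45* are both S phase genes and fork partners. *CCNE2* and *E2F8* are both S phase and G1 or E2F genes, so counts of different lists share genes. From NC to WG in MAD 5 S phase genes, 8 G2/M genes and 3 fork partners were called higher and none lower, of 33, 36 and 16 tested, where 5.38% of PCGs rose, and without WG MAD replicate 31 there were 3, 6 and 2, where 5.01% rose. The median of the G2/M list there was 0.40, against −0.01 over all PCGs. In GOM 4 of 34 S phase genes were called lower and none higher, where 14.5% of PCGs fell, and in RAD 3 of 33 were called lower and none higher, where 9.60% fell, so neither count exceeded the share of all PCGs. PCGs made up less than 88% of the summed TPM in 7 of 9 NC GOM and 6 of 12 NC RAD libraries, against 3 of 45 and 0 of 39 in WG.

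Named S phase genes that fell from NC to WG were *CCNE2*, a cyclin of the entry into S phase, *DSCC1*, which helps to load the sliding clamp, and *CDCA7*. *CCNE2* fell by 0.67 ± 0.14 in GOM (adjusted p = 3.03e-04), 0.71 ± 0.14 in RAD (adjusted p = 7.31e-05) and 0.60 ± 0.15 in ULB (adjusted p = 0.0185), and was at −0.45 ± 0.17 in MAD (adjusted p = 0.0569). *DSCC1* fell by 1.08 ± 0.16 in GOM and 0.88 ± 0.17 in RAD, but with the PCG share in the fit it was at −0.46 and 0.14. *CDCA7* fell by 0.88 ± 0.22 in GOM and 0.65 ± 0.22 in RAD. Of the G2/M genes, *KIF23*, a motor of the midbody, was called lower in GOM (−0.62 ± 0.25, adjusted p = 0.047) and higher in MAD (1.05 ± 0.33, adjusted p = 0.0197). In MAD *GAS2L3* (0.81 ± 0.19), *JPT1* (0.59 ± 0.16) and *CENPE*, a kinetochore motor (0.94 ± 0.27), rose as well, and without WG MAD replicate 31 only *JPT1* of the 3 fell under the fold limit (0.56).

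*E2F1*, a transcription factor of S phase genes, rose in the 3 visceral ATs, with log2 fold changes of 1.35 ± 0.35 in GOM (adjusted p = 0.00207), 1.5 ± 0.33 in MAD (adjusted p = 0.00109) and 1.01 ± 0.23 in RAD (adjusted p = 7.03e-04), and was at 0.90 ± 0.44 in ULB (adjusted p = 0.309). Its levels were low, with group medians of 0.31 to 0.50 TPM in NC and 1.22 to 1.6 TPM in WG. *MCM3*, a partner of *MCM2* in the helicase, rose in MAD (0.94 ± 0.20) and RAD (0.73 ± 0.19). *RBL2*, which encodes a pocket protein that holds cells in quiescence, fell in GOM (−0.62 ± 0.14, adjusted p = 7.79e-04) and RAD (−0.73 ± 0.12, adjusted p = 4.58e-06). Of 12 brakes tested from NC to WG in GOM 2 were called higher and 2 lower, in MAD none, and in RAD 2 lower, near the 26.7%, 10.7% and 16.7% of PCGs called. Of the G1 cyclins and E2F genes 1 of 16 was called higher and 1 lower in GOM, 1 of 15 higher in MAD, 1 of 14 higher and 1 lower in RAD, and 1 of 14 lower in ULB, where 2.38% of PCGs were called.

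From WG to WL the counts in MAD were 7 S phase genes, 6 G2/M genes and 3 fork partners called higher and none lower, of 34, 38 and 16 tested, where 8.26% of PCGs rose. Without the 4 *MS4A1*-rich libraries they were 0, 1 and 0 higher, where 2.74% rose, and 1, 0 and 0 lower. The G2/M gene still called higher was *TMPO*, a nuclear lamina protein, at 0.87 ± 0.15 with and 0.65 without those libraries. *TMPO* also rose in RAD (0.65 ± 0.12, adjusted p = 1.12e-04). *WDR76*, *MCM5*, *LBR* and *JPT1* were called higher in MAD, at 0.75 to 0.87, and each was lost without them. *CLSPN*, a checkpoint mediator at replication forks, fell in ULB (−0.60 ± 0.12) and was the S phase gene called lower in MAD without the *MS4A1*-rich libraries (−0.70). *CCNE2* fell again in GOM (−0.74 ± 0.15, adjusted p = 4.63e-04) and ULB (−0.80 ± 0.14, adjusted p = 3.14e-05), and *KIF23* fell in GOM (−0.76 ± 0.25) and ULB (−0.92 ± 0.22). Of 13 brakes 1 was called higher and 2 lower in MAD, where 17.4% of PCGs were called, with 0 without the 4 libraries.

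Between NC and WL 15 S phase genes, 19 G2/M genes and 10 fork partners were called higher in MAD, of 34, 38 and 16 tested, where 15.2% of PCGs rose. Without the *MS4A1*-rich libraries there were 3, 5 and 4, where 9.73% rose, so that the S phase and G2/M counts were near the share of all PCGs, with 1 S phase gene (*CCNE2*, −1.02) called lower. In GOM 10 of 37 G2/M genes were called lower and 2 higher, where 20.7% of PCGs fell and 15.4% rose. *RBL2* fell in all 4 ATs, by 1.04 ± 0.10 in GOM, by 0.95 ± 0.13 and 0.95 ± 0.12 in MAD and RAD, and by 0.66 ± 0.13 in ULB (adjusted p = 0.00237 at most). *CCNE2* fell by 1.40 ± 0.18 in GOM, 1.25 ± 0.21 in RAD and 1.41 ± 0.24 in ULB. *CDKN2D*, an inhibitor of CDK4 and CDK6, rose in GOM (1.06 ± 0.20) and MAD (0.65 ± 0.20), where the MAD call was lost without the *MS4A1*-rich libraries (0.42), and *CDKN1C*, another inhibitor of cyclin-dependent kinases, fell in GOM (−0.61 ± 0.19) and RAD (−0.59 ± 0.22). *UNG*, which removes uracil from DNA, rose in GOM (0.62 ± 0.14) and MAD (0.73 ± 0.22), and the GINS genes of the helicase rose in part, with *GINS1* in MAD and RAD (0.86 ± 0.25 and 0.74 ± 0.24) and *GINS4* in GOM and MAD (0.77 ± 0.23 and 0.67 ± 0.23). The MAD calls of *UNG*, *GINS1* and *GINS4* were lost without the *MS4A1*-rich libraries, at 0.41, 0.25 and 0.25.

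The genes did not vary as 1 set. Over the 236 libraries, with the mean of each group removed from log2(TPM + 1), the 15 pairs among *TOP2A*, *CDK1*, *CCNB1*, *BUB1*, *KIF11* and *MCM2* had Pearson's r of 0.60 to 0.91 and Spearman's rho of 0.54 to 0.91 (largest permutation p of these 15, adjusted over all 28 pairs, 1.75e-05 and 1.867e-05). The highest was *TOP2A* with *KIF11*. *CCNB2* was correlated with these 6 genes at r of 0.10 to 0.29 (largest adjusted permutation p 0.137, and 0.271 for rho) and *AURKB* at 0.15 to 0.30 (0.0313 and 0.0821). *CCNB2* with *AURKB* had r = 0.09 and rho = 0.01 (adjusted permutation p = 0.207 and 0.875). With the 2 libraries farthest from the median left out, r was 0.56 to 0.92 among the 6, 0.11 to 0.26 for *CCNB2* and 0.10 to 0.30 for *AURKB*, and among the libraries of high PCG share it was 0.61 to 0.93, 0.04 to 0.21 and 0.09 to 0.32. Libraries of one pig share the animal, so the 236 are not fully independent.

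**Figure D4:**
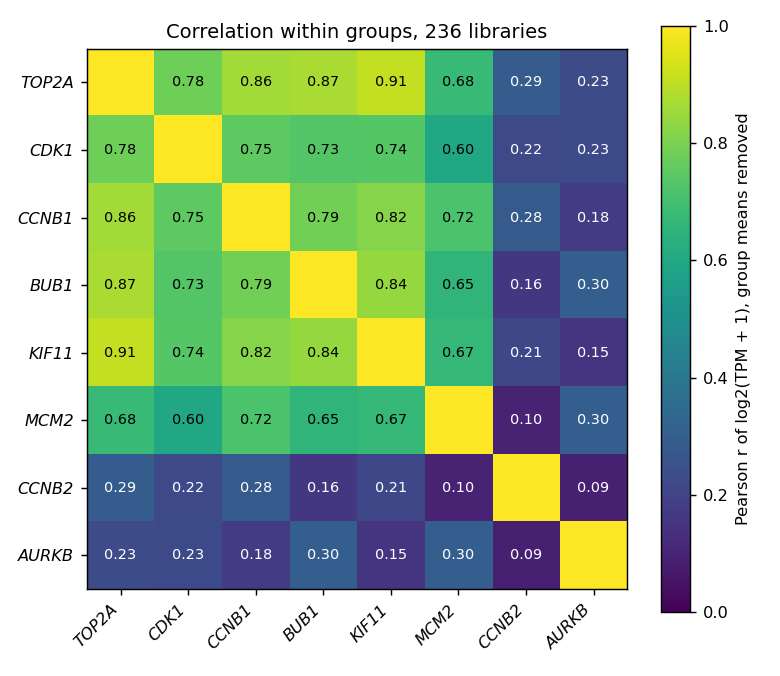
Pearson's r (colour and number) between each pair of the 8 genes on both axes, over 236 libraries after group means were removed from log2(TPM + 1). The 6 genes from *TOP2A* to *MCM2* form a block of 0.60 to 0.91, while *CCNB2* and *AURKB* stay at 0.30 or lower with every other gene.

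Outside the list, the PCGs most like the mean of the 8 genes over the 236 libraries, of 15068, were *BUB1B* (r = 0.91), *DLGAP5* (0.89), *SHCBP1* (0.88), *KIF15* (0.85), *NCAPG* (0.84), *NDC80* (0.84), *KIF20A* (0.83), *PCLAF* (0.83), *CDCA8* (0.83) and *CKAP2* (0.83). *BUB1B*, *NDC80* and *CDCA8* work at the kinetochore or centromere, *KIF15* and *KIF20A* are mitotic motors, *NCAPG* is a condensin subunit and *PCLAF* binds PCNA. *CCNB2* taken alone was most like *FDFT1*, squalene synthase of sterol synthesis (r = 0.53), followed by *NIPSNAP3A* and *TMEM71* (0.49 each). *ACADL* and *ACAA2* of fatty acid oxidation (0.46 and 0.44) and the ATP synthase subunit *ATP5F1C* (0.44) were also among its 10 nearest. The others were *KYAT3*, *MTAP*, *ALAD* and *SNX6*. *AURKB* alone was most like *SUGP2* (0.65), the condensin subunit *NCAPD2* (0.64) and *FANCG* of DNA crosslink repair (0.64). By Spearman's rho these ranked 11, 7 and 39.

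Within WG, *TOP2A* was also compared between samples with the same replicate number in different ATs. Of the 6 pairs of ATs, MAD with ULB had r = 0.54 and rho = 0.50 over 30 pairs (adjusted permutation p = 0.011 and 0.028), and MAD with RAD had r = 0.45 and rho = 0.46 over 31 pairs (adjusted permutation p = 0.032 and 0.028). Without the 2 samples farthest from the median r was 0.37 and 0.43. The other 4 pairs, with r of 0.007 to 0.34, did not pass the adjustment.

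The chromatin around the genes was read from the A-B index of 20-kb bins in 240 Hi-C samples, a score above 0 in the active (A) and below 0 in the inactive (B) compartment, and sorted the genes differently from their expression. The bins at the starts of *TOP2A*, *CCNB1*, *CCNB2*, *AURKB* and *MCM2* were in A in all 240 samples, as were 30.54% of 113298 bins. *MKI67* was in A in 239, *PCNA* in 236, *KIF11* in 207 and *BUB1* in 174. The start of *CDK1* was in A in 6 samples, all of WG ULB, although its median expression of 2.89 TPM was close to the 2.97 TPM of *KIF11*. *AURKB* had the highest index, with a median of 6.18 that was above 99.4% of bins, and *CDK1* the lowest, with a median of −1.29.

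The index varied between ATs, and *KIF11* and *CDK1* are given as examples. Others varied as well, such as *MKI67* (mean 1.11 in WL GOM and 2.46 in WL RAD) and *CCNB2* (3.20 in NC GOM and 4.21 in NC RAD). For *KIF11* the start was in A in 2 of 9 NC GOM, 37 of 46 WG GOM and 4 of 10 WL GOM samples, with an index of −0.26 ± 0.36 (SD), 0.29 ± 0.35 and 0.08 ± 0.49. In RAD it was in A in 7 of 12 NC, 40 of 40 WG and 10 of 10 WL samples, with 0.20 ± 0.53, 0.95 ± 0.43 and 1.32 ± 0.19. For *CDK1* the index in ULB was −0.58 ± 0.30 in NC and −0.48 ± 0.49 in WG, against −1.64 to −1.30 on average in the other ATs of NC and WG. In WL ULB it was −1.15 ± 0.38, nearer to the −1.53 to −1.31 of the other WL ATs. These are given as levels, with no test. The ranges of *KIF11*, *CDK1* and *CCNB2* overlapped. *MKI67* was at most 1.69 in WL GOM, and at least 1.98 in WL RAD and 2.05 in WL MAD. The share of all bins with ranges apart was not computed, so this is not shown to be particular to *MKI67*.

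**Figure D5:**
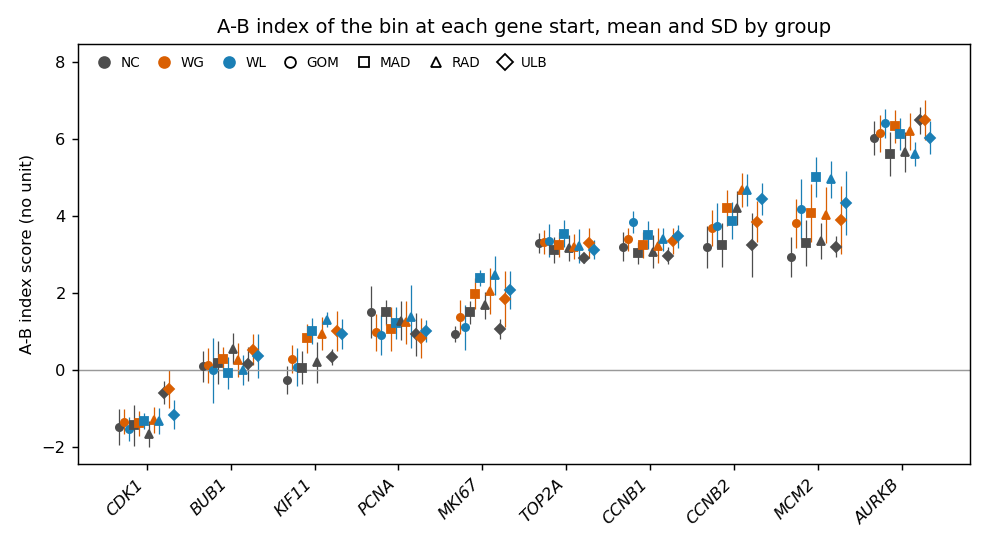
A-B index (vertical axis, a score with no unit, above 0 in the A compartment) of the 20-kb bin at the start of each of the 10 genes, as mean and SD of the 12 groups of diet (colour) and AT (symbol). *AURKB* lies highest and *CDK1* lowest, and the means of *BUB1* and *KIF11* lie near 0 or on both sides of it.

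H3K27ac marks active enhancers. The enhancer regions of 18 deposited tables, with the 2 kb around gene starts left out, were placed beside the genes. Each table came from pooled samples, except that of NC MAD, from a single sample. More tables are of WG, which was split into subgroups, than of NC or WL. *MKI67*, *TOP2A*, *PCNA* and *MCM2* had a region within 10 kb in all 18 tables, *AURKB* in 17, *CCNB2* in 14, *CDK1* in 12, *BUB1* in 9, *KIF11* in 5 and *CCNB1* in 4. Of 18722 PCGs 40.36% had one in all 18 tables, the median was 17, and 8.44% had none. Super-enhancers lay within 10 kb of *TOP2A* in 11 tables, of *AURKB* and *PCNA* in 9, of *MCM2* in 7, of *CCNB2* in 3 and of *MKI67* in 2. The share of all PCGs with a super-enhancer nearby was not computed, so these counts are not shown to be particular to these genes. *CCNB1* and *KIF11*, which were transcribed and correlated with *TOP2A* at r of 0.86 and 0.91, were among the genes with the fewest regions nearby.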

How the data were processed

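RNA was sequenced after ribosomal RNA depletion with a stranded kit, and the authors quantified it with kallisto 0.43.0 (submitters' processing notes) against Sscrofa11.1 with protein-coding genes (PCGs), lncRNAs and other transcripts. The deposited tables hold estimated counts per gene, summed by tximport, and TPM, which the authors scaled for gene length and library size. The deposited A-B index is a score that the authors computed from normalised Hi-C contact maps in 20-kb bins. The deposited H3K27ac tables give the authors' signal over stitched enhancer regions, of which only the positions were used here. Those regions were called from pooled samples, or from a single sample for NC MAD. Each expression and A-B table held 9 columns of samples that could not be matched to the labels, and these were not used.

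Symbols were paired with Ensembl IDs for 14821 of the 21280 PCGs. The 10 genes and the gene lists were chosen with earlier results of these data known. Estimated counts on PCGs were rounded to whole numbers and compared between pairs of groups with edgeR 4.0.16 (quasi-likelihood test, TMM factors, R 4.3.3), for PCGs over 0.5 TPM in 80% or more of the samples in one group or the other. A change was called at a Benjamini-Hochberg adjusted p below 0.05 and a fold above 1.5, and log2 fold changes are the second group over the first, with their standard error (SE). Whether a diet change differs between ATs was tested by an F test on the interaction over all 236 samples. The steps were tested on simulated counts first. Depth, given by the total counts, limits the precision of low genes.

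Alternatives were DESeq2 1.42.0, its size factors in edgeR (RLE), no filter on low values, the PCG share of the summed TPM as a covariate, only libraries of high PCG share (at least 88%), the replicate number as a block, the adjusted p alone, and each sample of the 5 NC ULB left out. Leaving out the 4 libraries with *MS4A1* above 20 TPM, and each WL sample in turn from WG against WL, was added after seeing the data. Same-numbered samples deviated together (every correlation over 0.1) for NC GOM with ULB, WG MAD with ULB, WG RAD with ULB and WL MAD with RAD, and only there were the numbers taken to pair samples. Beside the 8 genes, the 4 S phase and the 4 G2/M genes called in most ATs of each diet comparison (ties by the smallest adjusted p) were eligible to be named, as were up to 6 brakes, fork partners or G1 genes called in at least 2 ATs, and the 10 PCGs most correlated with the mean of the 8 genes. Genes like *CCNB2* or *AURKB* alone were looked up after seeing the data. Correlations used log2(TPM + 1) with group means removed and 100000 permutations, in Python 3.11.15 with scipy 1.17.1. Promoters were read from the RefSeq annotation and genome of Sscrofa11.1, for 9 of the 10 genes. One gene eligible to be named and one promoter are not reported here.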

Additional observations from a re-analysis of the deposited data

Results flagged for a closer look

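In 19 of 48 sets of a gene and a group of 4 to 10 samples, the highest sample lay farther from the next one than Dixon's critical value allows. That value assumes normally distributed data, which TPM need not be, and the sets share libraries and correlated genes. The count is therefore a flag only and is not set against a rate expected by chance. A single library accounts for many of these. WL MAD replicate 6, the library with the most B cell transcripts, stood apart for *TOP2A* (70.5 TPM), *CCNB1* (30.9 TPM), *CCNB2* (12.9 TPM), *BUB1* (7.87 TPM), *AURKB* (18.7 TPM), *KIF11* (26 TPM) and *MCM2* (19.7 TPM). WL RAD replicate 6, with *MS4A1* at 0.407 TPM, stood apart for *TOP2A* (26 TPM), *CDK1* (14.1 TPM), *CCNB1* (12.9 TPM), *BUB1* (4.13 TPM), *KIF11* (12.3 TPM) and *MCM2* (7.37 TPM). WL ULB replicate 10 stood apart for *TOP2A* (18.8 TPM), *CCNB1* (7.30 TPM) and *KIF11* (8.46 TPM). In the normal diet group NC GOM replicate 5 stood apart for *CDK1* (6.65 TPM) and *KIF11* (11.5 TPM), and NC ULB replicate 5 for *CDK1* (9.42 TPM).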

How the results depend on the processing

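Of the 44 calls of these genes in the 30 comparisons, 42 were kept by DESeq2, 43 with RLE factors, 40 without the filter, 30 with the PCG share in the fit and 18 among libraries of high PCG share, where 3 reversed and groups shrank to as few as 2 samples. Between NC and WG 7 calls became 4 among libraries of high share and 0 with the replicate block, which does not pair samples between diets. Between WG and WL 7 became 2 with the PCG share, 4 among libraries of high share, 3 with the block and 3 without the *MS4A1*-rich libraries, and 4 to 11 when single WL samples were left out. Between NC and WL 13 became 8 with the share, 3 among libraries of high share and 8 without the *MS4A1*-rich libraries. Between ATs, 4 calls in NC became 2 without the filter and 1 among libraries of high share, 9 in WG became 4 with the block and 22 by the adjusted p alone, and 4 in WL became 9 with DESeq2, 0 among libraries of high share and 9 with the block. Leaving out single NC ULB samples gave 7 to 7 calls between NC and WG, 13 to 14 between NC and WL and 3 to 4 between ATs in NC. The interaction from NC to WG was called for 1 gene with the block (*TOP2A*, adjusted p = 0.0408) against 0. From WG to WL in MAD the sign reversed for *CDK1* (−0.35 among libraries of high share, −0.21 without the *MS4A1*-rich libraries), *MCM2* (−0.53 and −0.10) and *CCNB1* (−0.53 and −0.43). In the other 4 pairs of WG ATs same-numbered samples also deviated together in most cases, with median r of 0.58 to 0.64 against −0.16 to −0.06 for other numbers, but the lowest r was −0.37 to −0.08, so the rule was not met, and the block lost the 5 calls from GOM or MAD to RAD given above. Between diet groups the median r was −0.19 to 0.09. In the pairs whose numbers pair samples the block changed the calls of NC GOM with ULB and WL MAD with RAD given above and no other. The causes of these changes were not tested. Genes near 1 TPM, *BUB1* above all, and the 5 NC ULB samples limit what could be seen.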

Other observations

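The libraries rich in *MS4A1* differed from the rest of MAD in other cell type genes as well. Endothelial genes summed to 458.6, 502.8 and 805.9 TPM in WL MAD replicates 6, 7 and 1, against 909.8 to 1371.7 TPM in the other 7 WL MAD samples, whereas macrophage genes, at 1846.7, 2747.7 and 2943.8 TPM, were within the range of the others (852.1 to 3834.7 TPM). Progenitor genes were at 286.1 and 237.1 TPM in replicates 6 and 7, below the 325.7 to 614.5 TPM of the others, and at 462.1 TPM in replicate 1. In WG MAD replicate 31 endothelial (752.2 TPM), macrophage (2639.8 TPM) and progenitor genes (466.0 TPM) were all within the range of the other 35 samples. These are levels in single libraries, with no test.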
